A study of Arabidopsis thaliana with 6 samples.

Results

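IAA29, GH3.3, WES1 and ARR15 are hormone early response genes of Arabidopsis, the first 3 tied to auxin and ARR15 to cytokinin. They were chosen by name, as the probe sets whose annotation gives 1 of these 4 symbols and no other gene. Each of the 4 had 1 such probe set among 22746 on the array, of which 13513 name a single gene. The comparison was made between 10-day-old Col-0 seedlings that carry human p53 under the constitutive 35S promoter (35S:P53 transgenic, called p53 here) and 10-day-old Col-0 wild type (WT) seedlings. There were 3 arrays for each genotype, from independent biological experiments according to the labels. No source used here says whether the p53 seedlings came from 1 transgenic line or from several. The transgene itself was not analysed here.

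Auxin acts by triggering the breakdown of Aux/IAA repressors, which frees auxin response factors to switch on target genes within minutes. Among the first of these targets are the Aux/IAA genes themselves and the GH3 genes, whose enzymes join auxin to amino acids, so that both close a negative feedback loop. Cytokinin is sensed by membrane histidine kinases, and its signal passes through phosphotransfer proteins to type-B response regulators in the nucleus. These switch on the type-A response regulators, small proteins that dampen the same pathway. The level of such early genes in a seedling is therefore commonly used as a readout of hormone signalling.

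The deposited values are logs from which each probe set's median over the 6 arrays was removed, so that the middle pair of arrays of every gene lies equally far above and below 0. They show differences between arrays and give no expression level. The log was taken as base 2, which no source states, and every fold change depends on that. The medians of the arrays spanned 0.02, and the median log2 fold change (p53 over WT) over all probe sets was -0.01. In whole seedlings, fewer cells that express a gene and less RNA in each cell cannot be told apart. The seedling label could not be checked against marker levels for the same reason, but 8 leaf, root and seed marker genes could be compared between genotypes. None of the 8 passed the limma test at an adjusted p under 0.05, where 15.4% of all probe sets did. The light-harvesting gene LHCB4.3 (log2 fold change -0.75) was the 1 with an unadjusted p under 0.05. The share of all probe sets at that unadjusted cut was not counted. With only 8 genes, these counts do not show that the tissue make-up was alike. The mean of the 4 leaf and photosynthesis markers lay between -0.23 and 0.05 on p53 arrays and between -0.04 and 0.08 on WT arrays, and that of the 3 root markers between -0.03 and 0.04 on p53 arrays and between -0.09 and 0.16 on WT arrays. Whether tissue make-up had a part in the results was not tested.

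IAA29 was lower and ARR15 was higher in p53 seedlings, WES1 was lower on every p53 array but narrowly missed the threshold, and GH3.3 overlapped between the genotypes. With limma, a linear model that shares information on the spread among all probe sets, 2 of the 4 genes (50%) had a Benjamini-Hochberg adjusted p under 0.05. Over the whole array 15.4% of probe sets did so, with 6.55% higher and 8.84% lower in p53 seedlings. Under a replicate block 2 of the 4 also passed, but WES1 (adjusted p = 0.0102) took the place of ARR15 (0.0677) beside IAA29 (0.0273). For 3 of the 4 genes (75%) no p53 array overlapped a WT array, which was also the case for 34.3% of all probe sets. The 4 are few, went both ways and were chosen with earlier results of these data known. These shares therefore describe them and carry no test.

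**Figure D1:**
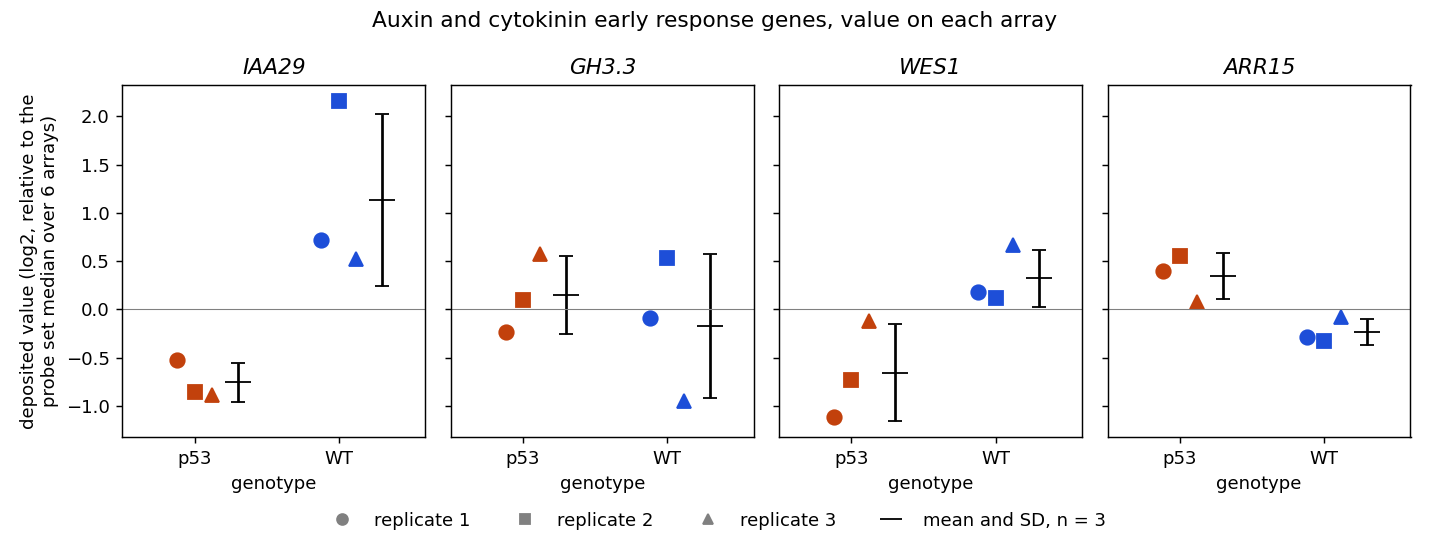
Deposited values (log2, centred on each probe set's 6-array median) of IAA29, GH3.3, WES1 and ARR15 on the 3 p53 and the 3 WT arrays. Symbols mark the replicate number and bars give the mean and SD (n = 3). The genotypes are separate for IAA29, WES1 and ARR15, while GH3.3 overlaps. WT replicate 2 of IAA29 stands at 2.16.

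IAA29 (AT4G32280, probe set 253423_at) encodes an Aux/IAA repressor whose transcript is raised by auxin and by the growth-promoting PIF transcription factors. Its values were -0.52, -0.86 and -0.89 on p53 replicates 1 to 3, against 0.72, 2.16 and 0.52 on WT replicates 1 to 3. All p53 arrays were low and close together, whereas the WT arrays were high and WT replicate 2 stood well above the other two. The means were -0.76 ± 0.20 in p53 seedlings and 1.14 ± 0.89 in WT seedlings (SD, n = 3 each). IAA29 fell in p53 seedlings. Its log2 fold change was -1.89 (standard error 0.41, 95% confidence interval -2.86 to -0.92, limma adjusted p = 0.0246), which is 3.71-fold lower. Only 0.519% of all probe sets had a lower log2 fold change. It was also the member past the thresholds with which the study selected genes, an unadjusted p under 0.05 and a change over 2-fold, which 5.88% of all probe sets passed with limma.

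The size of the IAA29 difference rested in part on WT replicate 2. The SD of IAA29 over the WT arrays was larger than that of 99.7% of probe sets, while its SD over the p53 arrays was larger than that of 66.3%. Without WT replicate 2 the IAA29 difference shrank to -1.38, while its adjusted p was then 0.00632. The call was lost without p53 replicate 1 (adjusted p = 0.0719), without WT replicate 1 (0.0555), after quantile normalization (0.0668) and with the methods' t-test, so called here for the test with which the study selected genes (0.131), and over 11 alternatives the adjusted p ran from 0.0059 to 0.131.

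GH3.3 (AT2G23170, probe set 245076_at) encodes an enzyme that conjugates indole-3-acetic acid, the main natural auxin, to amino acids and so takes it out of the active pool. Its values were -0.23, 0.09 and 0.58 on p53 replicates 1 to 3, against -0.09, 0.53 and -0.95 on WT replicates 1 to 3. The highest p53 and the highest WT array were nearly level, and the lowest of all was WT replicate 3. The means were 0.15 ± 0.41 in p53 seedlings and -0.17 ± 0.74 in WT seedlings (SD, n = 3 each), and the log2 fold change of 0.32 did not pass the test (standard error 0.38, limma adjusted p = 0.658). Its 95% confidence interval, -0.58 to 1.22, reaches up to 2.33-fold higher, so a moderate change in either direction was not detectable with these arrays. The direction turned when WT replicate 3 was left out, where the log2 fold change was -0.07. The SD of GH3.3 over the WT arrays exceeded that of 99.6% of probe sets.

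WES1 (AT4G27260, probe set 253908_at, also named GH3.5) encodes a close relative of GH3.3 that conjugates auxin and also acts on salicylic acid. Its values were -1.12, -0.74 and -0.12 on p53 replicates 1 to 3, against 0.17, 0.12 and 0.66 on WT replicates 1 to 3. All p53 arrays were below all WT arrays, although p53 replicate 3 came within 0.24 of WT replicate 2. The means were -0.66 ± 0.51 in p53 seedlings and 0.32 ± 0.30 in WT seedlings (SD, n = 3 each). The log2 fold change was -0.98 (standard error 0.27, 95% confidence interval -1.61 to -0.34), or 1.97-fold lower, and the limma adjusted p of 0.0536 lay just above the threshold. With the replicate number as a block, which compares p53 and WT arrays within each replicate, the adjusted p was 0.0102. It was 0.00946 without p53 replicate 3, where the log2 fold change was -1.25, and 0.049 with eBayes with trend and robust. WES1 passed in only these 3 of 11 alternatives. Among the others its adjusted p was 0.189 with the methods' t-test, 0.177 without WT replicate 3 and 0.151 without p53 replicate 1.

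ARR15 (AT1G74890, probe set 262212_at) encodes a type-A response regulator, induced by cytokinin and a brake on the cytokinin signal. Its values were 0.40, 0.56 and 0.08 on p53 replicates 1 to 3, against -0.29, -0.33 and -0.08 on WT replicates 1 to 3. All p53 arrays were above all WT arrays, and replicate 3 of each genotype lay nearest to the other genotype. The means were 0.34 ± 0.24 in p53 seedlings and -0.23 ± 0.13 in WT seedlings (SD, n = 3 each). ARR15 rose in p53 seedlings by a log2 fold change of 0.58 (standard error 0.14, 95% confidence interval 0.24 to 0.91, limma adjusted p = 0.0371), which is 1.49-fold and so below the 2-fold threshold of the study's gene selection.

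The ARR15 call was close to the threshold. With the replicate number as a block its adjusted p was 0.0677, and with the methods' t-test it was 0.130. Leaving out p53 replicate 3 kept the call, at 0.71 on the log2 scale and an adjusted p of 0.00917. It passed with no other single array left out, where the adjusted p ran from 0.059 to 0.131. The direction was the same under all 11 alternatives.

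Set array by array, each p53 array can be compared with each WT array in 9 ways. IAA29 was lower in all 9, by log2 differences (p53 minus WT) from -3.05 to -1.05, and WES1 was lower in all 9, from -1.78 to -0.24. ARR15 was higher in all 9, from 0.16 to 0.88. GH3.3 was higher in 6 and lower in 3, from -0.76 to 1.53. The 9 comparisons share arrays and are no independent replicates. Between arrays of the same number, the log2 differences of replicates 1, 2 and 3 were -1.25, -3.02 and -1.41 for IAA29. They were -1.29, -0.86 and -0.78 for WES1, and 0.69, 0.88 and 0.16 for ARR15. For GH3.3 they were -0.14, -0.44 and 1.53, so that its mean was positive through replicate 3 alone. An exact two-sided permutation test of 3 against 3 arrays gave p = 0.1 for IAA29, WES1 and ARR15, the smallest it allows, and p = 0.6 for GH3.3.

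**Figure D2:**
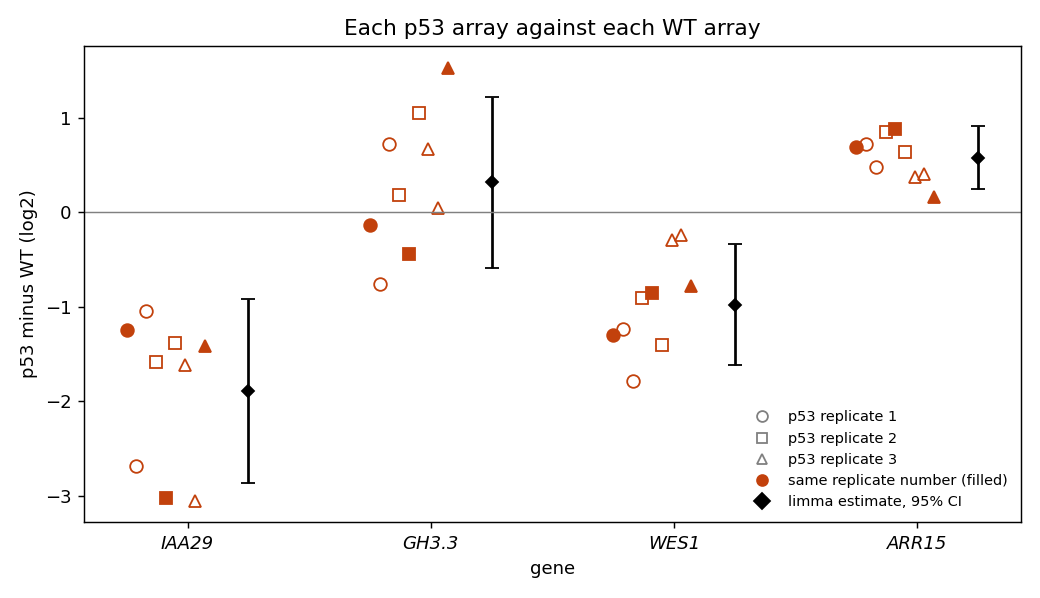
Difference between each p53 and each WT array (p53 minus WT, log2) for the 4 genes. Open and filled symbols are single comparisons, filled where both arrays carry the same replicate number, and diamonds are limma estimates with 95% confidence intervals. All 9 comparisons lie below 0 for IAA29 and WES1 and above 0 for ARR15, while GH3.3 has 6 above and 3 below.

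On p53 arrays GH3.3 and WES1 had the same order, lowest in replicate 1 and highest in replicate 3, and GH3.3 minus WES1 was 0.89, 0.83 and 0.70 on replicates 1 to 3. On WT arrays the same difference was -0.27, 0.41 and -1.62, so the 2 genes ran in opposite order there. The response of GH3.3 minus that of WES1 was 1.3 on the log2 scale with no overlap between the genotypes, but the exact permutation test could not go below p = 0.1 (adjusted p = 0.15 over the 6 pairs of genes), and after quantile normalization it gave p = 0.2. Both IAA29 and GH3.3 were highest in replicate 2 and lowest in replicate 3 among the WT arrays, whereas among the p53 arrays their order was reversed, with IAA29 highest and GH3.3 lowest in replicate 1.

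The same exact test (p = 0.1, adjusted p = 0.15) and no overlap were found for GH3.3 against IAA29 (difference of log2 fold changes 2.21), for IAA29 against ARR15 (-2.47) and for WES1 against ARR15 (-1.56). IAA29 against WES1 differed by -0.92 and GH3.3 against ARR15 by -0.26, each with overlapping arrays (exact permutation p = 0.5 and 0.8, adjusted p = 0.6 and 0.8). None of the 6 differences can reach an adjusted p under 0.05 in a design of this size.

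The other members of the same families that could be named are few, since the annotation used here names alone only 7 of 29 Aux/IAA genes, 5 of 11 GH3 genes and 2 of 10 type-A response regulators. Among the 7 Aux/IAA genes, IAA29 and IAA18 fell and 5 did not pass the test, where 8.84% of all probe sets fell and 6.55% rose. IAA18 had values of -0.40, -0.13 and -0.40 on p53 replicates 1 to 3, against 0.13, 0.17 and 0.28 on WT replicates 1 to 3. Its log2 fold change of -0.50 (limma adjusted p = 0.0228) was smaller than that of IAA29. The call of IAA18 was lost with the methods' t-test and without p53 replicate 1 or any single WT array (adjusted p up to 0.0954). The other 5 had log2 fold changes from -0.09 for IAA31 to 0.04 for IAA33, IAA34 among them with -0.08. The deposited values do not show whether these 5 were expressed, so an unchanged and an unexpressed gene cannot be told apart.

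None of the 5 GH3 genes passed the limma test after adjustment, where 15.4% of all probe sets did. WES1 and GH3.9 were the 2 with an unadjusted p under 0.05. The share of all probe sets at that unadjusted cut was not counted. The log2 fold change of GH3.9 was 0.40 (adjusted p = 0.153), opposite in sign to WES1, and that of GH3.1 was 0.03. GH3.17, which also conjugates auxin, had 0.37 (adjusted p = 0.602). A single array stood out there, p53 replicate 3 at 1.36, where GH3.3 and WES1 were highest among the p53 arrays too. Without that array its log2 fold change was -0.11.

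The auxin lists also hold enzymes of auxin synthesis and breakdown, transport and other early targets, but only 23 of their genes could be named on the array. Of these 23, 1 was higher, 3 were lower and 19 did not pass. The share of calls among the 23 was close to the 15.4% of all probe sets. Their median log2 fold change was -0.08, against -0.01 over all probe sets. The gene that rose was UGT74D1, a glucosyltransferase that acts on auxin, with a log2 fold change of 1.18 (limma adjusted p = 0.0366). HAT2, an auxin-induced homeodomain transcription factor, fell by 0.84 (adjusted p = 0.0277) beside IAA29 and IAA18. The lists missed IAGLU, an indole-3-acetate glucosyltransferase that the annotation names alone. Its log2 fold change was -0.44 (limma adjusted p = 0.0152), opposite in sign to UGT74D1, and it was not followed under the alternatives. UGT74D1 did not pass without p53 replicate 1 or any single WT array, nor HAT2 without p53 replicate 1, WT replicate 1 or WT replicate 2, and neither passed with the methods' t-test. The auxin synthesis genes YUC2, YUC6 and YUC11 did not pass, at -0.14, -0.24 and -0.23 on the log2 scale. The same was true of WAG2, a kinase of auxin transport (-0.19), SKP2A (-0.29), and LBD16 and LBD29, early targets in root branching (-0.01 and 0.02). SKP2A passed in 1 alternative, without p53 replicate 3, at -0.49 on the log2 scale (adjusted p = 0.0409). The log2 fold change of LBD16 was above 0 with quantile normalization and with each array centred.

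From the cytokinin lists only 8 genes could be named on the array. Of these 8, 3 were higher, none was lower and 5 did not pass, beside 6.55% higher and 8.84% lower over all probe sets. Their median log2 fold change was 0.12. The 2 type-A response regulators both rose. RR16 (ARR16), the other one beside ARR15, had values of 1.55, 1.53 and 1.14 on p53 replicates 1 to 3, against -1.91, -1.72 and -1.14 on WT replicates 1 to 3. RR16 rose by 3.0 on the log2 scale (standard error 0.22, 95% confidence interval 2.49 to 3.51, limma adjusted p = 0.000387), or 7.99-fold, and passed under all 11 alternatives. For RR16, as for ARR15, replicate 3 of each genotype lay nearest to the other genotype. The difference in size between ARR15 and RR16 was not tested.

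The remaining gene of the cytokinin lists that rose was UGT76C2, an enzyme that inactivates cytokinins by glucosylation, with a log2 fold change of 1.13 (limma adjusted p = 0.00288). Its relative UGT76C1 had -0.75 (adjusted p = 0.0974) but passed under a replicate block (0.0304) and without p53 replicate 2 (0.0169). The response regulators RR18 and RR22 had 0.11 and 0.12, RR19 had -0.26, and the purine permease PUP15 was at 0.00, its sign turning with quantile normalization and with each array centred. None of these passed.

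**Figure D3:**
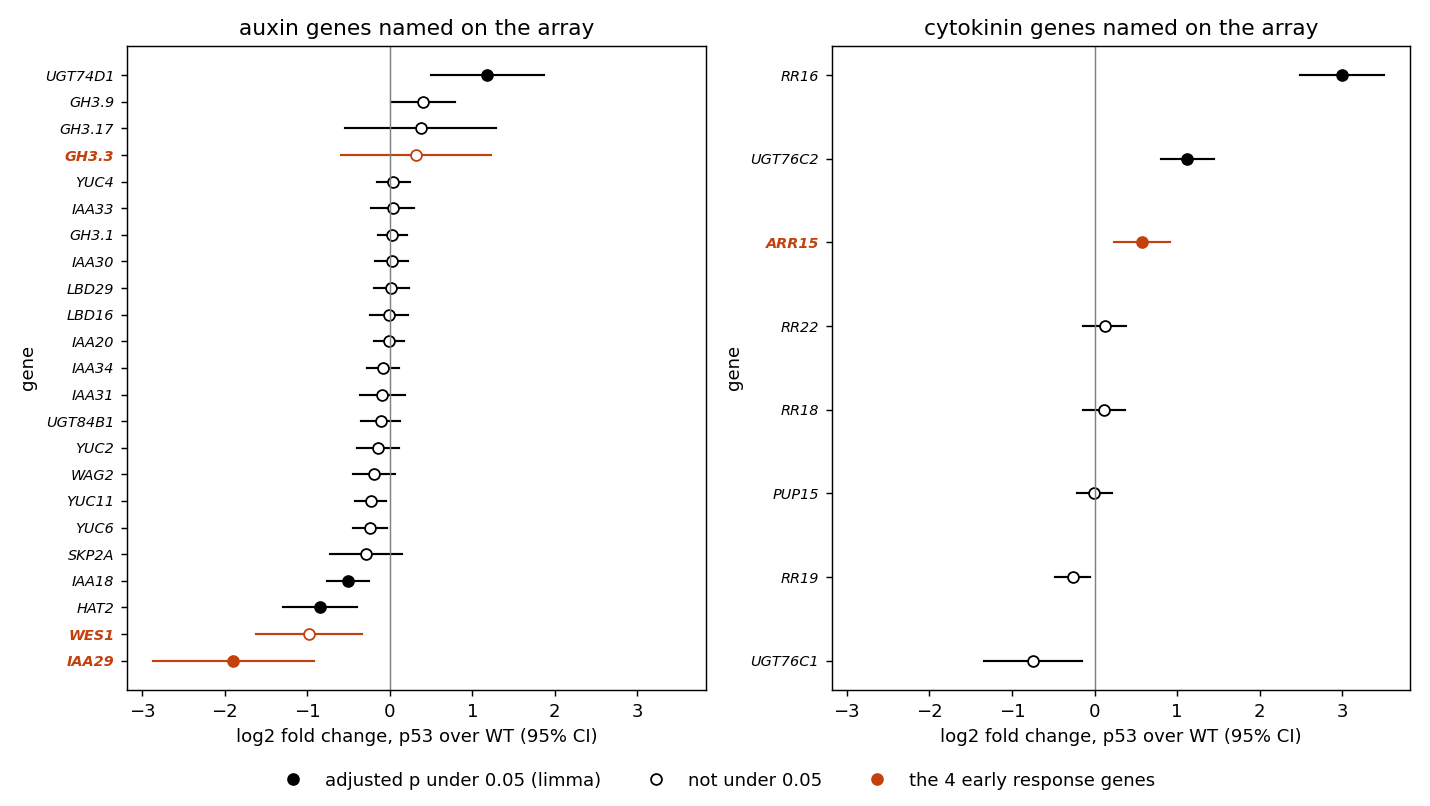
Log2 fold changes (p53 over WT) with 95% confidence intervals from limma for 23 auxin and 8 cytokinin genes. Filled points had an adjusted p under 0.05 and the 4 early response genes are coloured. IAA29 has the lowest value of the auxin genes at -1.89, and RR16 at 3.0 the highest of the cytokinin genes.

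Likeness to each of the 4 genes was measured as the root mean square difference of the deposited values over the 6 arrays, among probe sets that name 1 gene. The 3 genes closest to ARR15 lay 0.08 to 0.09 from it on the log2 scale (AT2G18850, AT3G07530 and AT5G66000, with log2 fold changes of 0.60, 0.66 and 0.50). Those closest to WES1 lay 0.14 to 0.17 from it (AT1G65490, AT4G14020 and AT1G21000, with -1.19, -0.97 and -1.04). Those closest to IAA29 lay 0.42 to 0.48 from it (AT3G28310, AT3G49930 and AT4G04630, with -1.79, -1.24 and -1.71), and on each of them WT replicate 2 was also the highest WT array. For GH3.3 the distances were 0.28 to 0.30 (AT1G53710, AT2G14900 and AT1G13750, with 0.44, 0.15 and 0.30), and on each of these WT replicate 3 was the lowest array. The close genes were picked by these same values, so their likeness is a description and says nothing of a shared function.

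**Figure D4:**
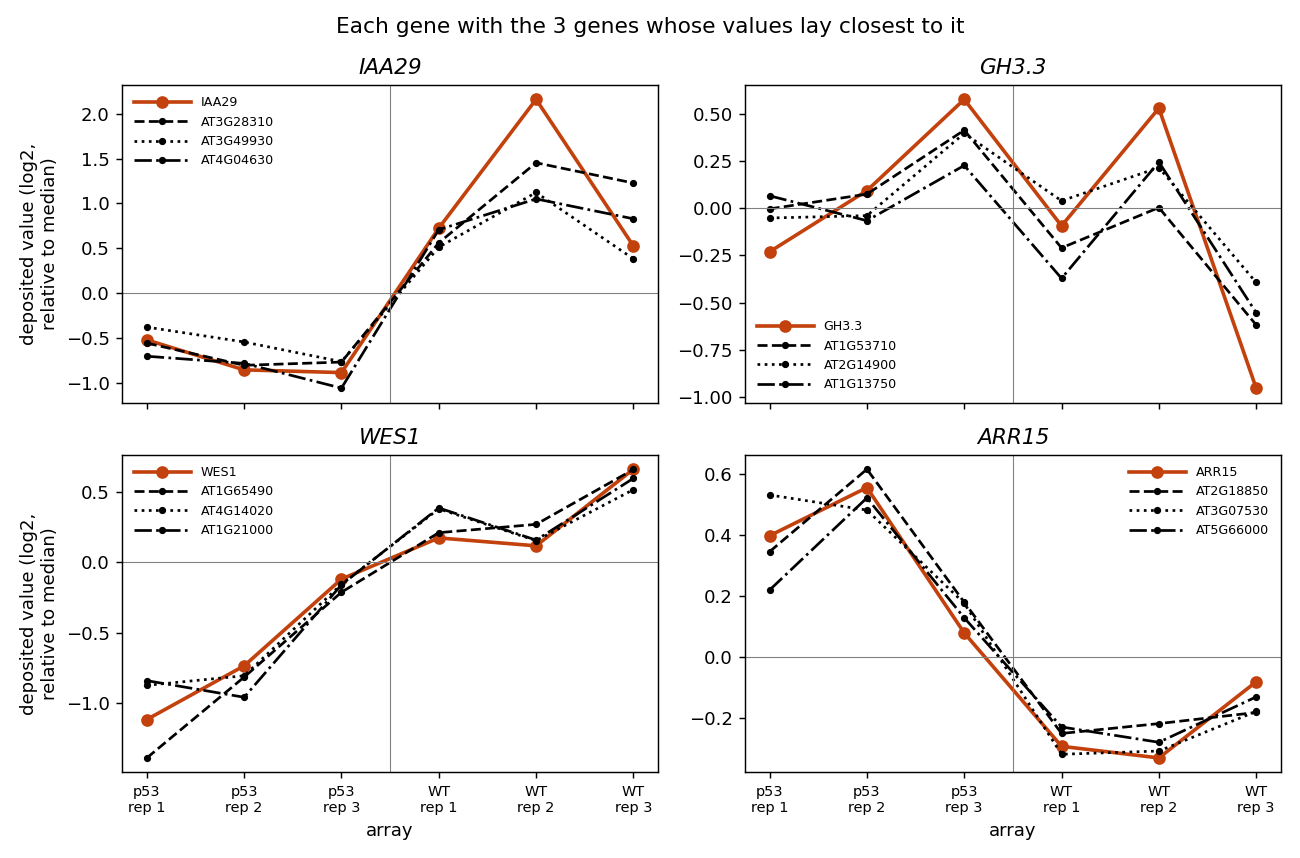
Deposited values (log2, centred on each probe set's 6-array median) of IAA29, GH3.3, WES1 and ARR15 (coloured) and of the 3 genes closest to each (black), on the 3 p53 arrays and the 3 WT arrays. The lines only join the values of a gene. The distances run from 0.08 for ARR15 to 0.48 for IAA29, whose value on WT replicate 2 no close gene reached.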

How the data were processed

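Affymetrix ATH1 arrays measured RNA of 10-day-old seedlings, 3 arrays per genotype. The log values deposited by the authors, taken here as log2, were summarized with PLIER, per the submitters' notes, and centred per probe set over the 6 arrays. No source used here gives the log base, the background correction or the normalization between arrays. The deposited values carry no detection call per gene, and the number of arrays limits the precision. In the study's quality control summary every array is marked as outside bounds in the threshold test. Ratios of some spike-in controls in that summary also differed widely between arrays. Whether array quality had a part in the results was not tested. RNA extraction is given as TRIzol in the labels and as an RNeasy kit in the methods.

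After 64 control probe sets were dropped, 22746 were fitted with limma 3.58.1 in R 4.3.3 (genotype as the only term), and p-values were adjusted over all 22746 by Benjamini-Hochberg. The steps were tested on simulated data. The methods' t-test (equal variances), named by the study for its selection of genes and not in its methods section, was an alternative. Labels give replicate numbers without saying what they share. Over probe sets, same-numbered p53 and WT arrays deviated together from their genotype means (r = 0.12, 0.27 and 0.34), so the numbers can be read as pairs. The fit and tests reported leave the pairs out, and a replicate block was an alternative. Quantile normalization, array centring, eBayes with trend and robust (a prior spread that follows the mean and resists outliers), and leaving out each array were the others.

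Lists were matched by symbol or synonym. AUR3, an Aurora kinase caught by the GH3 list, was dropped, and the SAUR, auxin receptor, cytokinin receptor and cytokinin response factor lists had no gene that could be named. Named genes are the 4 members, up to 4 genes per list with the smallest p, and the 3 closest to each member. IAA33, GH3.1 and IAGLU were added after their values were seen. The members and lists were chosen with earlier results of these data known.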

Additional observations from a re-analysis of the deposited data

How the results depend on the processing

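The array number limits these results, and calls near the threshold moved with single arrays. In log2 fold change, IAA29 lost its call at -2.46 with quantile normalization and at -1.89 with the methods' t-test, and ran from -2.20 to -1.38 with 1 array left out (adjusted p from 0.00632 to 0.0719). WES1 passed at -0.98 with the replicate block and with eBayes with trend and robust, and ran from -1.25 to -0.75 (adjusted p from 0.00946 to 0.177). ARR15 lost its call at 0.58 with the replicate block and with the methods' t-test, and ran from 0.47 to 0.71. GH3.3 ran from -0.072 to 0.67. GH3.3 minus ARR15 ran from -0.73 to 0.14. The causes were not tested. Members called numbered 2, but 1 with quantile normalization, 0 with the methods' t-test (3 at an unadjusted p under 0.05) and 0 to 3 with 1 array left out. The 0 arose without p53 replicate 1 and without WT replicate 1, where 3 had an unadjusted p under 0.05. At an unadjusted p under 0.05 and over 2-fold it was 1 with either test. Of the auxin genes 4 were called, 0 with the methods' t-test (7 at an unadjusted p under 0.05) and 0 to 6 with 1 array left out. The share of all probe sets at an unadjusted p under 0.05 alone was not counted. Counts of genes at that cut therefore stand without a background and carry no comparison. The cytokinin genes called numbered 3, and 2 or 3 under the alternatives. Over the array 3500 probe sets were called, 1411 with the methods' t-test and 1621 to 4346 with 1 array left out. At an unadjusted p under 0.05 and over 2-fold there were 1337 with limma and 1160 with the t test. Uncalled genes near 0 changed sign. LBD16 had 0.0059 with quantile normalization and 0.0022 with each array centred, PUP15 0.010 and 0.011. With 1 array left out the log2 fold changes ran from -0.080 to 0.045 for LBD16, from -0.055 to 0.049 for PUP15, from -0.028 to 0.073 for LBD29, from -0.19 to 0.0069 for IAA31, from -0.16 to 0.088 for BIM1, from -0.11 to 0.65 for GH3.17 and from -0.025 to 0.28 for AT2G14900. The replicate block changed no other call among the named genes except UGT76C1 (adjusted p = 0.0304), which passed, and AT5G66000 (adjusted p = 0.0564), which did not.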

Other observations

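IAA29 is also known as a gene of the shade and PIF response. Of 55 genes on a list of that response, 3 could be named on the array. FHL, which helps to carry the light receptor phytochrome A into the nucleus, had values of -0.30, -0.59 and -0.39 on p53 replicates 1 to 3, against 0.31, 0.43 and 0.30 on WT replicates 1 to 3. FHL fell by 0.77 on the log2 scale (limma adjusted p = 0.00423) and passed under all 11 alternatives. HAT2, which is also an auxin-induced gene, fell by 0.84 on the log2 scale (limma adjusted p = 0.0277) and passed under 7 of 11 alternatives. BIM1, a partner of brassinosteroid transcription factors, was at -0.05 (limma adjusted p = 0.863). So 2 of the 3 fell, where 8.84% of all probe sets did, and 3 genes do not describe the response. On WT arrays FHL was highest in replicate 2, as IAA29 was, but by far less.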
